A study of Mus musculus with 22 samples.

Results

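The comparison set the livers of adult mice labelled as Tcf7l2 knockouts against their controls over both feeding states at once, to find changes that recur in fasted and in fed livers. All adult arrays of the series were used, 14 of 22 in all: 7 with LTCF4KO in the title and 7 with Control, chosen by title alone. All 14 mice were C57BL/6 and carried Tcf7l2loxp/loxp, and all received tamoxifen at 3 weeks of age. Only the knockouts also carried SA-CreERT2, a Cre recombinase that tamoxifen activates. After a further 1 to 2 months the mice were either fasted for 24 h (4 controls, 4 knockouts) or fed ad libitum (3 controls, 3 knockouts), and the liver was taken. The labels do not say which promoter or cell type drives SA-CreERT2 or which exons the loxP sites flank, and they call the samples biological replicates. On each Agilent mouse expression array, liver RNA in Cy3 met a Stratagene mouse reference RNA in Cy5, without dye swaps. Values are log2 of liver over reference, and a change is knockout minus control. Each of the 4 slides held both genotypes and 1 feeding state, so genotype was compared within slides (slide as a block). A change counts as called at a Benjamini-Hochberg adjusted p under 0.05 in limma.

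Tcf7l2, also called TCF4, is a TCF/LEF transcription factor that binds DNA and recruits beta-catenin, the effector of canonical Wnt signalling, to target genes. In the liver, Wnt ligands made by endothelial cells around the central vein keep neighbouring hepatocytes in a pericentral program that includes glutamine synthesis and many drug-metabolising enzymes. Hepatocytes around the portal vein carry out most urea synthesis, gluconeogenesis and amino acid breakdown. In RNA from whole liver, fewer cells of a type and less RNA per cell cannot be told apart.

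TCF/LEF factors bind the core motif ATCAAAG, searched here on both strands (reverse complement CTTTGAT) of RefSeq promoters on GRCm38.p6, from 250 bases before to 50 after the gene start. It was found in 359 of 11393 tested genes with a promoter in the table (3.15%), in 4 of 57 such genes among those lower in knockouts (7.02%) and in 1 of 31 among those higher (3.23%). These counts describe letters in a window and not binding. The 5 called genes with the motif are shown because they include the Wnt target gene Sp5 and the glutamate transporter gene Slc1a2, both among the largest falls. Each line gives 29 bases with the motif in capitals, 5′ to 3′ on the strand of the gene.
Sp5, chr2:70474808-70474836, plus strand: ggcaaggccccCTTTGATcaggaaaatcc
Slc1a2, chr2:102706220-102706248, plus strand: agaagagggacATCAAAGgccccaaatgg
Tnfrsf19, chr14:61038172-61038200, minus strand: ctgaatgggggATCAAAGtgacaaactag
Acot1, chr12:84009280-84009308, plus strand: ctgtcattgtgCTTTGATttagacacttt
Sgk1, chr10:21978482-21978510, plus strand: acacctaagagCTTTGATgtttcaaagtc
The first 4 genes fell in knockout livers, and Sgk1 was the only one of the 5 that rose.

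The liver channel was well above background on 50.2% to 62.0% of spots on fasted arrays and on 22.8% to 31.2% on fed arrays, so fewer dim genes could be measured in fed livers. Ratios of arrays of 1 group correlated at 0.9577 to 0.9786 across genes. The first principal component, with 47.4% of the variance, separated fasted from fed arrays. Tcf7l2 was read by 3 probes on chromosome 19 of mm9. The brightest, at chr19:56007586-56007645, was well above background on all 14 arrays, and its change was 0.29 (SE 0.14, adjusted p = 0.456 in limma). Its controls read -0.13, 0.09, 0.03 and -0.10 fasted and -0.37, -0.06 and -0.64 fed, and its knockouts read 0.63, -0.15, 0.22 and 0.57 fasted and 0.01, -0.35 and -0.13 fed, so the genotypes overlapped in both states. The probes at chr19:55982975-55983034 and chr19:56006460-56006519 stood at 0.07 (unadjusted p = 0.7173 in limma) and -0.03 (unadjusted p = 0.8114 in limma). No probe passed the test, so a fall of Tcf7l2 was not seen on the arrays labelled knockout. Since the deleted exons are not given, these probes may lie outside the deleted part and then check nothing about the labels.

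Across both feeding states 124 of 17186 genes (0.722%) were called, 41 higher (0.239%) and 83 lower (0.483%) in knockouts. A test of the fasted livers in the same arrays called 133 genes (0.774%, 41 higher, 0.239%, and 92 lower, 0.535%), and one of the fed livers called 50 (0.291%, 16 higher, 0.0931%, and 34 lower, 0.198%). The genes common to all 3 lists numbered 25, every one of them lower. A further 47 called genes were also called in fasted livers alone and 4 in fed livers alone. The remaining 48 (0.279%) were called in neither feeding state by itself, 21 higher and 27 lower. Of these 48 genes 31 were well above background on at least 3 arrays of each state, and 8, all of them lower, on no fed array, against 86 and 19 of the 124. For those 8 the fed change was not measured. The median standard error of a change was 0.109 over both states, against 0.138 in fasted and 0.168 in fed livers. The tests share all arrays, so the 48 genes are a description of what pooling adds and not separate evidence. Their median absolute change was 0.596 (range 0.336 to 2.81), and 39 of them changed by less than 2-fold. The 76 genes also called in a single state had a median of 1.25.

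Of the 48 genes, 47 had the same sign on all 4 slides, as did 2745 of all 17186 genes (16%). The knockout and control arrays did not overlap in either feeding state for 26 of the 48, for 87 of the 124, and for 180 of all genes (1.05%). An unadjusted interaction p under 0.05 in limma was found for 24 of the 124 and for 0 of the 48. Being called over both states but in neither alone favours genes with like changes on all slides, so these counts describe the choice and support nothing. The interaction called 0 of all genes in limma (1498 had an unadjusted p under 0.05, and the smallest adjusted p was 0.121). It called 7 genes when the ratios of the scanner software were used and 1 with all probes of a gene averaged. A missed threshold does not show equal changes in both states.

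**Figure D1:**
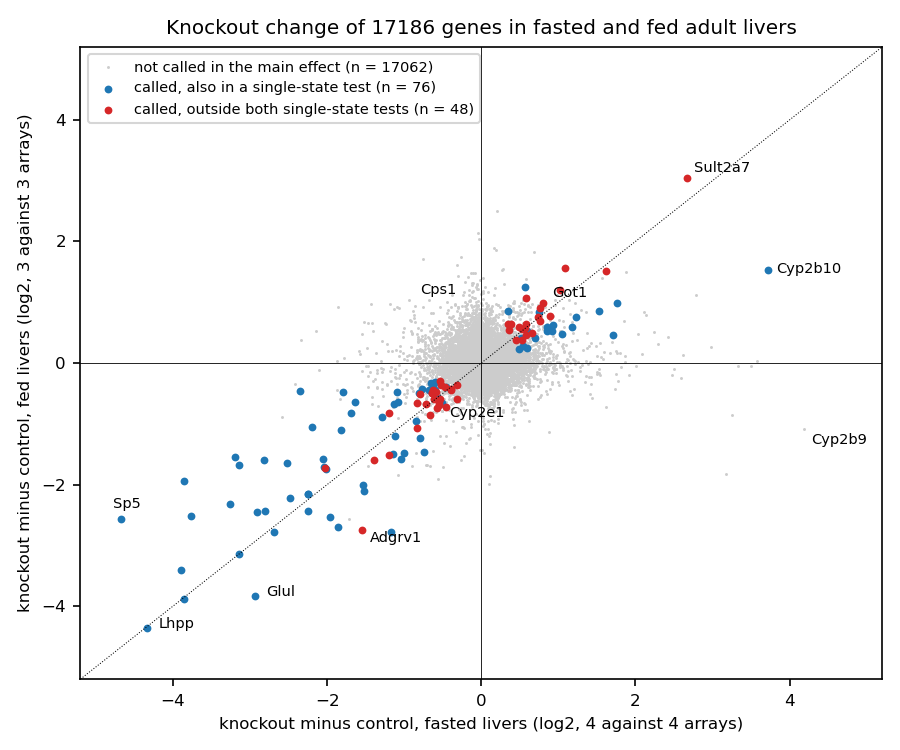
Knockout minus control (log2) in fasted livers (horizontal axis, 4 against 4 arrays) and fed livers (vertical axis, 3 against 3 arrays) for 17186 genes, 1 point per gene. Coloured points mark the 124 called genes, split into those also called in a single feeding state (76) and those called in neither (48). All called genes lie in the lower left or upper right, some far from the diagonal, such as Cyp2b10 at 3.72 fasted and 1.53 fed.

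The 48 genes depended on how the background was treated. On each of the 14 arrays the scanner software marked between 263 and 1309 local backgrounds of the liver channel as outliers, and these were replaced by the array median. Of the spots concerned, 7 on fasted control 1, 5 on fasted control 2 and 3 on fasted control 3 lay below their own background, and 0 on the other arrays. With them kept, 63 genes were called across both states, and 0 of them fell outside the single-state tests, since the fasted test then called 2005 genes. Of the 48, 15 were among the 63. Without slide 3, 43 genes were called, 20 of them outside, and without slide 4 the counts were 38 and 9.

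The 5 largest falls were those of Lhpp, Oat, Sp5, Slc1a2 and Glul. Lhpp, a histidine and lysine phosphatase gene read at chr7:139898005-139898064, fell by 4.35 (SE 0.17, adjusted p = 7.6e-08 in limma) on the log2 scale, 20.3-fold. Its control values were 3.15, 3.39, 3.74 and 3.02 fasted and 3.28, 2.67 and 3.34 fed. Its knockout values were -1.07, -1.38, -0.33 and -1.25 fasted and -1.14, -1.38 and -1.19 fed. All 7 knockout arrays lay below all 7 control arrays. Oat, ornithine aminotransferase, read nearby at chr7:139749726-139749785, fell by 3.87 (SE 0.17), 14.6-fold. Its controls lay between 1.95 and 3.05 and its knockouts between -1.68 and -0.49, with no overlap.

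Glul, glutamine synthetase, which joins ammonia to glutamate, fell by 3.30 (SE 0.22, adjusted p = 9.8e-06 in limma), 9.85-fold. In controls it stood at 4.54 ± 0.51 (SD, n = 4) fasted and 4.24 ± 0.50 (SD, n = 3) fed. In knockouts it stood at 1.60 ± 0.58 (SD, n = 4) fasted and 0.42 ± 0.13 (SD, n = 3) fed. The ranges were apart in both states, and the fall was 2.94 fasted and 3.84 fed. Slc1a2, a glutamate uptake transporter, fell by 3.70 (SE 0.13), by 3.90 fasted and 3.41 fed. Its reference channel was lower by 1.09 on the knockout arrays as well, and its liver channel fell by 4.80. Rhbg, an ammonia channel, fell by 2.66 (SE 0.33, adjusted p = 0.0018 in limma), and its fed controls were the most spread, at 3.95, 2.60 and 5.06.

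Genes known as transcriptional targets or regulators of Wnt signalling fell with them. Sp5, a transcription factor gene that canonical Wnt signalling switches on, fell on 4 of 4 slides. Its fasted controls were 4.03, 4.02, 5.25 and 4.14, and its fasted knockouts were -0.14, -0.40, -0.42 and -0.30. Knockout signals of Sp5 were not well above background, so its fall is at least 6.13-fold, and at least 14.5-fold in fasted livers. Lgr5, the R-spondin receptor that amplifies Wnt signals, fell at least 2.73-fold (adjusted p = 0.0025 in limma) and at least 5.63-fold in fasted livers, and no fed array measured it above background. Tbx3, a T-box repressor, fell by 3.27 (SE 0.29), and Tnfrsf19, a receptor of the TNF family, fell by 2.19 (SE 0.15). Here "at least" sets the mean of the brighter group against the lowest signal well above background on the dimmer arrays. These means are of the liver channel and take no account of slide. Of 19 tested Wnt targets and feedback genes, 4 fell and 1 rose (median change -0.31, against 0.01 over all genes). The one that rose was Sox9, a factor of bile duct cells, with a fitted difference of 1.46. In fed livers 0 of 3 controls and 2 of 3 knockouts measured it above background. The bound from the liver channel there, 2.25-fold, exceeds the fitted fed difference of 0.996 log2, so it is not firm. Sox9 was called in 6 of 14 fits with an array left out. The feedback inhibitor genes Notum and Rnf43 stood at -1.34 and -0.98 over both states, with adjusted p of 0.055 and 0.097 in limma. In fasted livers 6 of the 19 fell, including Notum (by 1.84, adjusted p = 0.020 in limma) and the feedback inhibitor Znrf3 (by 0.57, adjusted p = 0.033). No fed array measured Notum or Znrf3 well above background, so their fed changes were not measured. Of 15 TCF/LEF factors and beta-catenin partners, 0 were called.

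Large falls were also seen in several drug, retinoid and lipid genes. Ces2b, a carboxylesterase, fell by 3.14 (SE 0.20), Aldh3a2, which oxidises fatty aldehydes, by 2.88 (SE 0.20), and Serpina7, a plasma carrier of thyroxine, by 2.73. Cyp2c38 fell at least 3.87-fold and at least 8.30-fold in fasted livers, with a reference channel above background on 0 arrays. Rdh9, a retinol dehydrogenase, fell by 2.72 (SE 0.13), and Gstm2, a glutathione transferase, by 1.75 (SE 0.21). Ces2b, Cyp2c38 and Gstm2 have close paralogs that a probe may also bind. Among lipid droplet and Pparg target genes 3 of 20 fell and 0 rose (median -0.13). These were Pparg itself (fell by 2.32, SE 0.17), the lipoprotein receptor gene Vldlr (fell by 2.19, SE 0.18) and Fitm1 (fell by 1.91), which aids droplet formation. Acot1, a thioesterase of fatty acyl-CoA, fell by 1.87. Plin4, Mogat1, G0s2 and Cd36 of the lipid droplet list stood between -1.39 and -1.08 and were not called. The list was near even in sign, with 11 of its 20 genes below 0 and 9 above, against 7954 of all 17186 genes below 0.

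Moderate falls outside both single-state tests were led in size, among genes measured in both states, by Adgrv1 and Klhdc7a, and by Cyp2e1 in significance. Cyp2e1, which oxidises ethanol and other small molecules in pericentral hepatocytes, fell by 0.60 (SE 0.09, adjusted p = 0.0104 in limma), 1.52-fold, on 4 of 4 slides. Its fasted controls were 5.98, 6.07, 6.38 and 6.18, and its fasted knockouts 5.40, 5.49, 5.83 and 5.71. Its fed controls were 7.37, 7.67 and 7.09, and its fed knockouts 6.84, 6.72 and 6.59. The genotypes did not overlap in either state. On these arrays the reference channel of Cyp2e1 stood at -1.05 (unadjusted p = 0.02882, adjusted p = 0.756 in limma) and its liver channel at -1.65 (adjusted p = 0.165), so neither channel alone was called.

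Acaa1a, a peroxisomal thiolase of fatty acid oxidation, fell by 0.56 (SE 0.10, adjusted p = 0.0191 in limma). Its fasted controls were 2.16, 2.53, 2.73 and 2.76 against 2.02, 1.75, 2.49 and 2.09 in knockouts, which overlap. Its fed controls were 2.57, 2.74 and 2.63 against 1.93, 1.78 and 1.95, which do not. Pebp1 fell by 0.56 (SE 0.10), and Adcy6, an adenylate cyclase that makes cAMP, by 0.61 (SE 0.11). The Adcy6 controls lay between -0.30 and 0.26 and the knockouts between -1.02 and -0.35, apart from one another within each state. Adgrv1, a very large adhesion receptor, fell by 2.02 (SE 0.35), with fasted knockout 3 at 3.75 above fasted control 3 at 3.47. Klhdc7a fell by 1.05 and Pcp4l1 by 0.92. In 23 alternatives other than leaving out an array, the call of Klhdc7a was lost in 11 and that of Pcp4l1 in 10. Over all alternatives their changes came as near 0 as -0.061 and -0.086. Smaller falls were those of Ube2e2 (0.59) and Yaf2 (0.58), of the clock protein gene Cipc (0.44), and of Pir (0.44) and Hexa (0.43), a lysosomal hexosaminidase subunit. Avpr1a, the liver receptor of vasopressin, and the long non-coding RNA Meg3 were chosen after their values were seen. Avpr1a fell by 1.47 and Meg3 by 1.91, both on 4 of 4 slides, but no fed knockout array measured either above background.

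Moderate rises included enzymes and carriers of amino acids. Got1, the cytosolic aspartate aminotransferase of the malate-aspartate shuttle, rose by 0.88 (SE 0.14, adjusted p = 0.0125 in limma), 1.83-fold, on 4 of 4 slides. Its fasted controls were 1.45, 0.89, 1.15 and 0.50, and its fasted knockouts 1.87, 1.53, 1.91 and 1.86. Its fed controls were 1.27, 1.54 and 1.80, and its fed knockouts 2.14, 2.03 and 2.84. All knockouts lay above all controls within each state. Slc7a2, a carrier of arginine, lysine and ornithine, rose by 0.77 (SE 0.14, adjusted p = 0.0247 in limma). Its fed values, 3.02, 3.31 and 3.34 against 4.57, 4.25 and 4.07, were apart. Its fasted values overlapped, since slide 3 (3.94 and 4.31 against 4.61 and 5.04) lay below slide 4 (5.41 and 5.28 against 5.60 and 6.01), and within each slide the knockouts were higher.

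Amdhd1, an enzyme of histidine breakdown, rose by 0.42 (SE 0.08, adjusted p = 0.0248 in limma). Its fasted controls ran from 6.51 to 6.68 and its knockouts from 6.98 to 7.14, and in fed livers 6.48, 6.27 and 5.99 stood against 7.02, 6.71 and 6.50. Sdsl, which resembles serine dehydratase, was also called in a single state and rose by 0.79 (SE 0.09, adjusted p = 0.0012 in limma), with no overlap. Etnppl, phosphoethanolamine phospholyase, rose by 0.84 (SE 0.16, adjusted p = 0.0392 in limma), by 0.57 fasted and 1.26 fed. With the ratios of the scanner software its change was -0.036 (adjusted p = 0.9503 in limma), so its direction depended on the signal used. Of 39 tested enzymes of amino acid catabolism, Got1, Sdsl and Amdhd1 rose and 0 fell, and the median change was 0.07. Gldc, of glycine cleavage, stood at 0.75 with an adjusted p of 0.054 and was not called.

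Rises in signalling and immune genes were of like size. Sgk1, a kinase induced by glucocorticoids, rose by 0.61 (SE 0.09, adjusted p = 0.0071 in limma), 1.52-fold. Its fasted controls were -1.96, -1.73, -1.73 and -1.43, and its fasted knockouts -1.0, -1.25, -1.20 and -1.06. Its fed controls were -1.48, -1.12 and -1.31, and its fed knockouts -0.81, -0.61 and -0.71. The genotypes were apart in both states, and the change was 0.58 fasted and 0.64 fed. Oasl1, an interferon-induced gene, rose by 0.75 (SE 0.11, adjusted p = 0.0101 in limma), with controls between -1.29 and -0.83 and knockouts between -0.57 and 0.03. Il13ra1, a receptor chain for interleukin 13, rose by 0.73 (SE 0.12), and Sdc1, a heparan sulfate proteoglycan that clears lipoproteins, by 0.49 (SE 0.09). Of 25 interferon and antigen presentation genes, 0 were called, and 20 stood above 0, against 9232 of all 17186 genes. The median of this list was 0.36 in fasted and -0.07 in fed livers.

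Further rises outside both single-state tests ranged from 0.44 to 2.81, some of them on dim signals. Rdh5, a retinol dehydrogenase, rose by 0.59, Nudt19, which cleaves coenzyme A, by 0.54, and Adamts7, a metalloprotease, by 0.82. Rab23, Pdlim1 and Tmem268 rose by 0.46, 0.44 and 0.54, and Olfm3 by 1.28. Sult2a7, a bile acid and steroid sulfotransferase, rose most, by 2.81 (SE 0.45, adjusted p = 0.0131 in limma). Its controls ran from 0.95 to 3.08 fasted and from 2.13 to 3.67 fed, and its knockouts from 3.22 to 6.02 fasted and from 5.06 to 6.21 fed. The liver channel measured it above background on 1 of 3 fed control arrays, and the reference channel on 6 of 14. H2-Q1, a class Ib histocompatibility gene, rose by 1.58 (SE 0.31) with a reference channel above background on 3 of 14 arrays, and its liver channel was above background on 1 of 3 fed controls and 1 of 3 fed knockouts. Both belong to families of near-identical genes, so the member measured is uncertain. Drc1, of the ciliary dynein regulatory complex, rose by 1.1. In fed livers its bound from the liver channel, 2.30-fold, was about as large as the fitted fed change of 1.2 log2, so it is not firm.

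**Figure D2:**
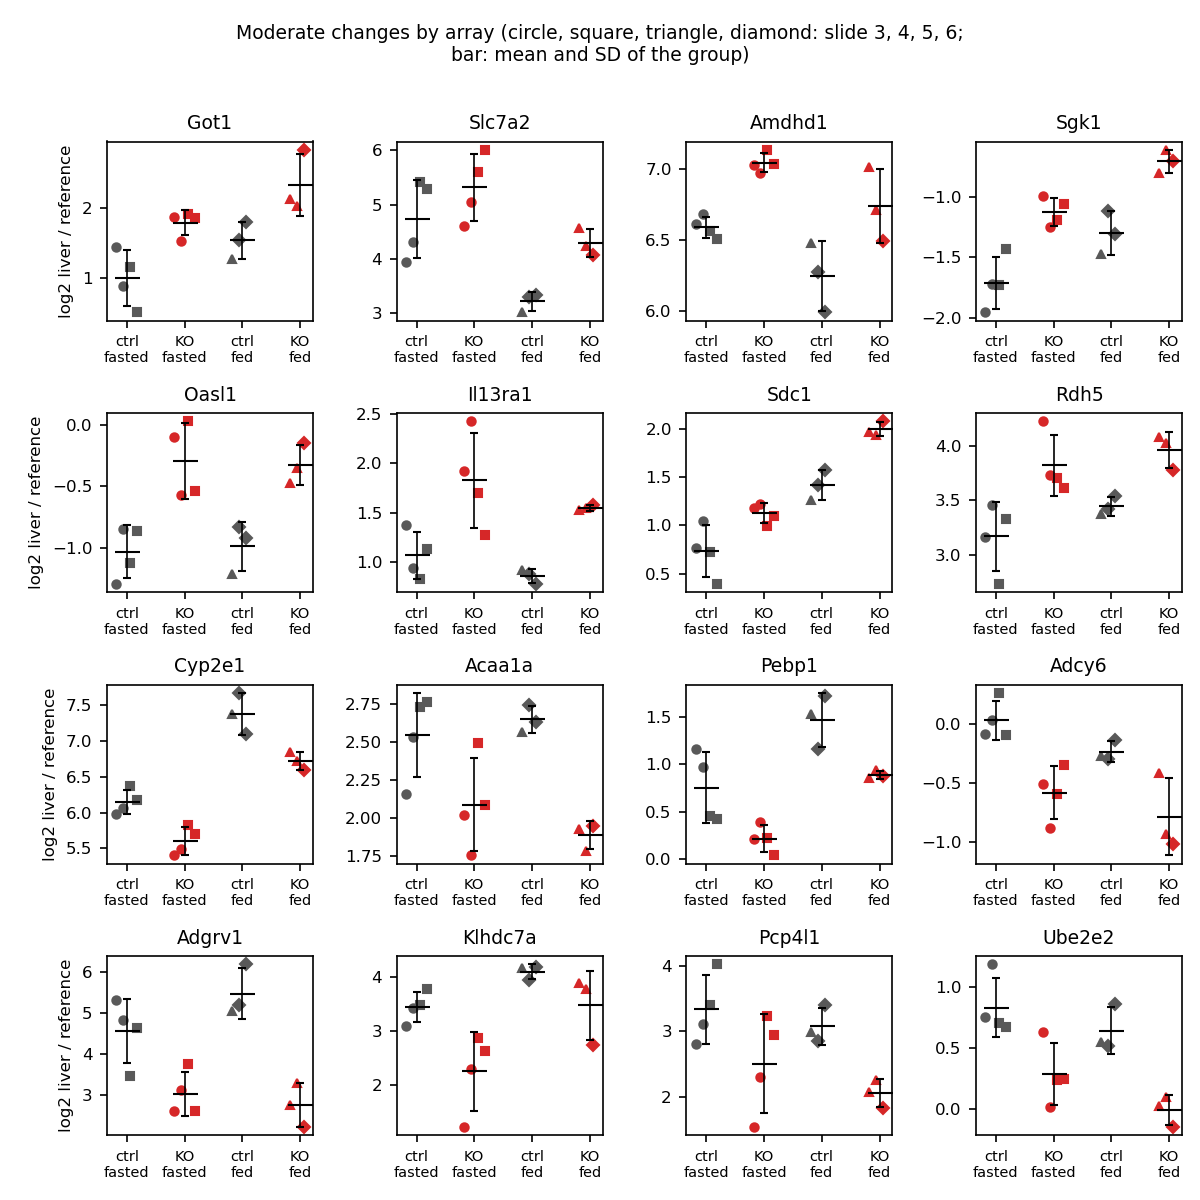
Log2 liver over reference of selected moderately changed genes on each of the 14 arrays, by genotype and feeding state. Marker shapes give the slide, and bars give the mean and SD of a group (n = 4 fasted, n = 3 fed). For Got1, Sgk1 and Cyp2e1 the knockout and control points do not overlap within either feeding state, whereas for Acaa1a and Slc7a2 they overlap in fasted livers.

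Hepatocyte genes that differ between liver zones were counted by zone. These and the other gene lists were chosen with earlier results of these data known, so their counts are descriptions and not separate evidence. Of 27 tested pericentral genes, 10 fell and 0 rose, with 23 below 0 and a median of -0.38. These were Lhpp, Oat, Slc1a2, Glul, Ces2b, Aldh3a2, Rhbg, Slc13a3, Blvrb and Cyp2e1. Slc13a3, a dicarboxylate carrier, fell at least 2.29-fold, and Blvrb, biliverdin reductase B, fell by 1.27. The reference channel of Blvrb stood at 0.56 (adjusted p = 0.756 in limma) and its liver channel at -0.70 (adjusted p = 0.292 in limma). Neither channel of Blvrb alone was called. Cyp1a2, Cyp2c29, Gstm1, Gstm3 and Akr1c6 of the same list stood within 0.10 of 0 in the ratio. For Cyp1a2 the ratio change was -0.09, but its liver channel alone was lower by 2.28 and its reference channel by 2.19 on knockout arrays. Of 29 tested periportal genes, Sdsl and Etnppl rose and 0 fell, 28 stood above 0 and 1 below, and the median was 0.14. Over all genes 7954 of 17186 stood below 0. Other hepatocyte lists shared this small positive median, at 0.11 for hepatocyte markers, 0.18 for acute phase and iron genes and 0.13 for coagulation and complement genes, so the periportal genes are not set apart by it. The periportal median was 0.06 in fasted and 0.30 in fed livers. Cps1, which makes carbamoyl phosphate for the urea cycle, stood at -0.05 in fasted livers and rose by 1.02 in fed livers (adjusted p = 0.0153 in limma). Of 22 ammonia, glutamine and urea cycle genes 4 fell (Oat, Slc1a2, Glul and Rhbg), Slc7a2 rose and the median was 0.10.

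**Figure D3:**
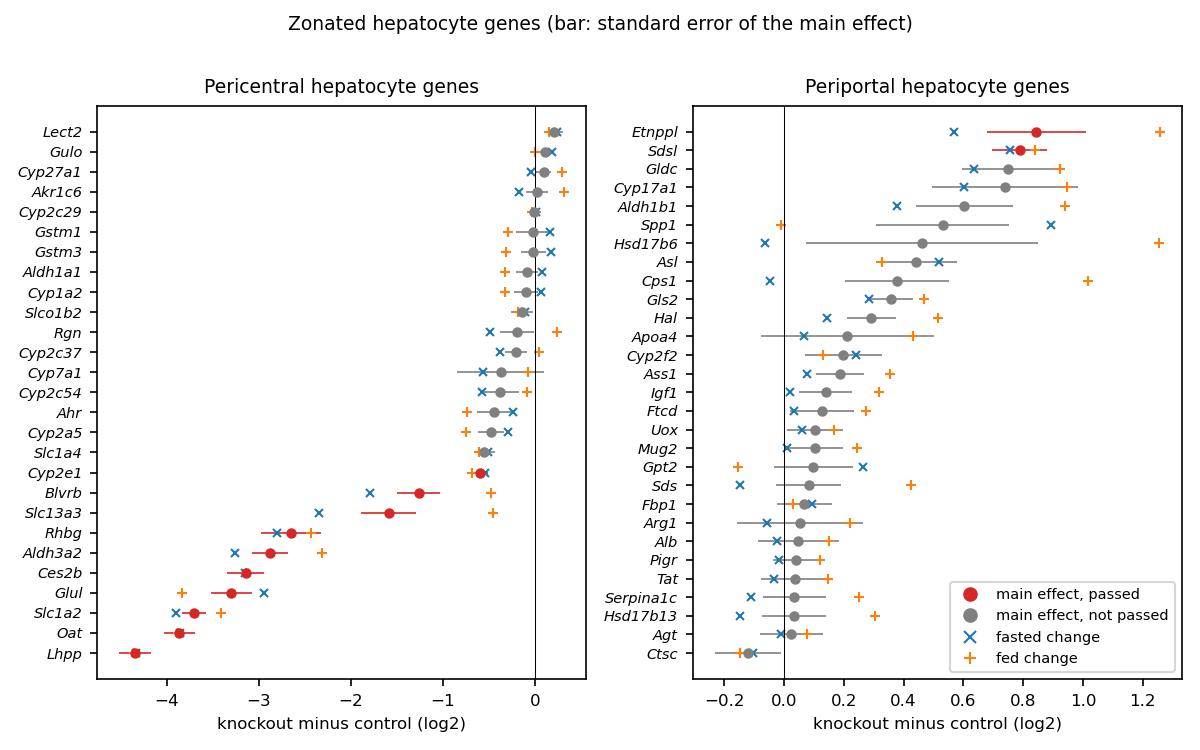
Knockout minus control (log2) over both feeding states for the tested pericentral (27) and periportal (29) hepatocyte genes. Each point is a gene (red where called) with its standard error as a bar, and crosses and plus signs give the fasted and fed changes. Pericentral changes run from -4.35 for Lhpp to 0.21 for Lect2, and periportal ones from -0.12 for Ctsc to 0.84 for Etnppl.

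The reference RNA is the same on every array, so its channel should not differ by genotype. In the same fit of that channel alone 9 genes were called (0.0524%), all lower on knockout arrays. They include Cyp1a2, Cyp2a4, Cyp2a5 and Slc1a2. Of the 124 genes called in the ratio 1 (Slc1a2) and of the 48 genes 0 were among these 9, while 37 of the 124, 11 of the 48 and 770 of all 17186 genes had an unadjusted p under 0.05 there. The part of this channel in the other ratios was not tested.

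Most other gene lists held few or no called genes. Of 25 fatty acid and triglyceride synthesis genes Acly, which makes cytosolic acetyl-CoA, rose by 0.55 (SE 0.10), 0 fell and the median was 0.18. Acly stood at 0.34 fasted and 0.86 fed, with an unadjusted interaction p of 0.0071 in limma. Srebf1, the regulator of these genes, stood at 0.78 and Scd1 at 0.73, and neither was called (adjusted p = 0.055 and 0.059 in limma). Of 24 cholesterol synthesis genes Nsdhl fell by 0.85, with a list median of -0.12, which was -0.42 in fasted and 0.08 in fed livers. In fasted livers 5 of the 24 were called lower, and in fed livers 0. Fdps, of the 5, fell by 1.16 fasted (adjusted p = 0.0133 in limma) and stood at 0.20 fed. Of 25 genes of the xenobiotic receptors CAR and PXR, Cyp2b10, a well known CAR target, was called higher (adjusted p = 0.0098 in limma), and 0 fell. Its liver channel was above background on 4 of 4 fasted and 2 of 3 fed knockouts, but on 1 of 4 fasted and 0 of 3 fed controls, so the fed rise is at least 1.25-fold and its fitted log2 differences, 3.72 fasted and 1.53 fed, are not exact. On slide 6 Cyp2b10 was higher by 0.42, against 2.64 to 3.73 on the other slides. A second entry read nearby, at chr7:26702417-26711087, stood at 2.12 and was not called (adjusted p = 0.054 in limma). The close paralog Cyp2b9 stood at 4.18 fasted and -1.08 fed, and a probe may bind both. Cdkn1a, a p53 target that halts the cell cycle, rose by 1.21, by 1.71 fasted and 0.46 fed, but was called in only 3 of 14 fits with an array left out, and no other of 19 p53 targets was called. Of 34 proteasome genes 0 were called, with 30 below 0 and a median of -0.13. Of 35 genes of fatty acid oxidation 1 was called and fell, with a median of -0.11. With the marked local backgrounds kept this median was 0.02, but that of all genes also moved, from 0.013 to 0.085.

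**Figure D4:**
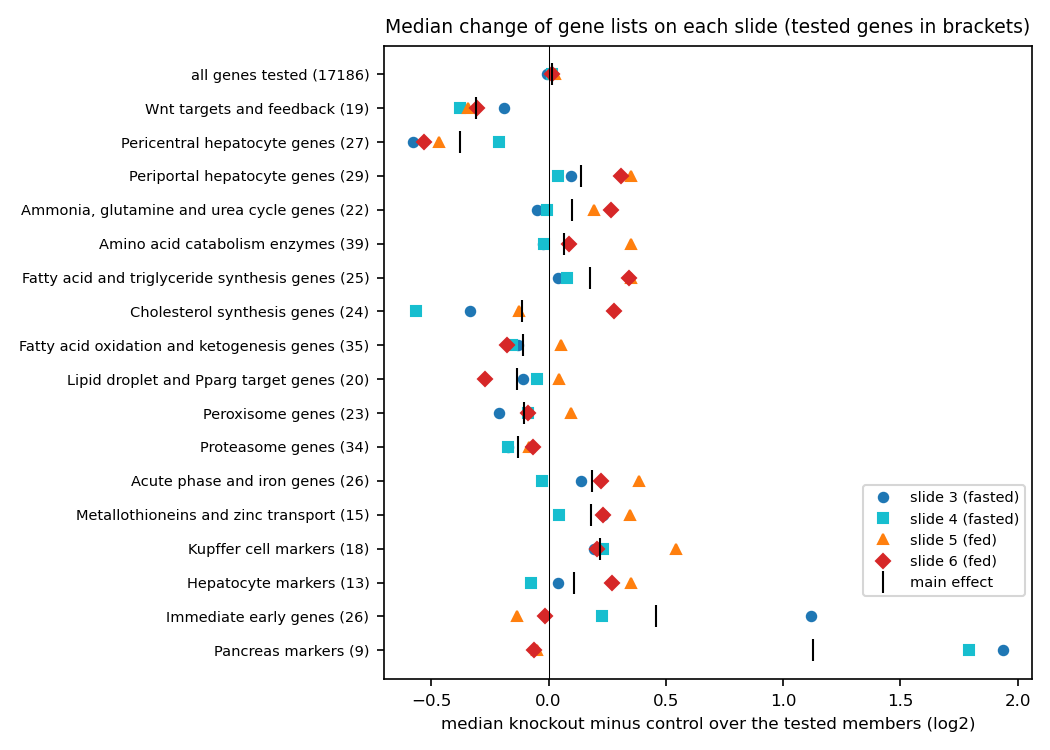
Median knockout minus control (log2) over the tested members of gene lists, for all 14 arrays and within each of the 4 slides. Numbers in brackets are tested genes. The lists were chosen with earlier results of these data known. The pericentral and Wnt target lists have the lowest medians over all arrays, at -0.38 and -0.31, and the immediate early genes spread widely between slides, from 1.12 on slide 3 to -0.13 on slide 5.

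Markers of other cell types were compared by list and by array. All 18 tested Kupffer cell markers stood above 0 with a median of 0.22 and 0 called, as did 13 of 13 hepatocyte markers with a median of 0.11 and 0 called. Summed liver signals of the Kupffer markers were 113200 to 205500 in fasted controls, 156500 to 210800 in fasted knockouts, 116500 to 136800 in fed controls and 125000 to 182200 in fed knockouts. The fasted and the fed ranges overlap, but within slides 4, 5 and 6 each knockout lay above each control, and on slide 3 fasted control 2 (205500) lay between the knockouts. Of 26 acute phase and iron genes 25 stood above 0 (median 0.18), with 0 called. Pancreas markers stood apart on single arrays: their summed signal was 149700 on fasted knockout 2 and 64720 on fasted knockout 3, and 3450 to 6012 on the other 12, for a list median of 1.13. Summed signals were also high for lymphocyte markers on fasted control 2 (32720, others 5548 to 16510), for erythroid markers on fasted control 4 (373600, others 99150 to 195800) and for neutrophil markers on fasted knockout 2 (11290, others 1489 to 5236). On fasted knockout 1 cholangiocyte markers were highest (31910, others 16400 to 24980), as was Sox9 of that list (2.29). Adipose and muscle markers were lowest on the same array (48130, others 154100 to 420300). Immediate early genes, which respond within minutes to stress or handling, had a median of 0.72 in fasted and -0.06 in fed livers, with 0 of 26 called. The part of these shifts in the called genes was not tested. Leaving out fasted knockout 2 left 73 called genes.

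Genes differed in how far their call rested on single arrays. Each array was left out in turn, and 58 of the 124 genes and 5 of the 48 were called all 14 times. The 5 were Sgk1, Oasl1, Sult2a7, Cyp2e1 and Endod1, the last of which was chosen after its values were seen. In 23 other alternatives, however, the call of Cyp2e1 was lost in 7, with the change between -1.74 and -0.37, that of Oasl1 in 5, that of Sult2a7 in 4 and that of Sgk1 in 2. The alternatives that ended the call of Cyp2e1 were the scanner software's ratios, local backgrounds kept, scaling, the liver channel alone, and leaving out slide 3, 4 or 5. The large falls of Lhpp, Oat, Glul, Slc1a2, Rhbg, Sp5, Lgr5, Tbx3, Pparg and Vldlr and the rise of Sdsl were also called all 14 times. Got1 lost its call once, without fed knockout 3 (adjusted p = 0.055 in limma), and Il13ra1 once, without the same array (adjusted p = 0.061). Slc7a2 was called 8 times, Adcy6 and Klhdc7a 7 times, Pebp1 and Adgrv1 6 times, Sox9 6 times, Blvrb 5 times, Amdhd1, Slc13a3 and H2-Q1 4 times, and Etnppl, Acly, Cdkn1a, Avpr1a, Rdh5 and Olfm3 3 times. Pir was called 12 times, Pcp4l1 9 times and Yaf2 6 times. Rab23, Pdlim1, Adamts7, Ube2e2 and Tmem268 were called 2 times each, and Hexa and Cipc 1 time each. Srrm4 and Cplane1, among the 10 largest rises, rose by 1.26 and 0.94 and were called 3 and 2 times. No fed array measured Srrm4 above background. Just inside the threshold lay Tanc2 (0.39, adjusted p = 0.047), Tmem268 (0.54, 0.049) and Ppat (0.45, 0.049) and just outside it Gcnt2 (0.91, 0.050), Enpep (0.41, 0.050) and Plbd2 (0.38, 0.051).

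Genes called in 1 feeding state were not always called over both. The fasted test called 61 such genes and the fed test 21. Zscan2 was called in both single states in opposite directions, at -0.62 fasted and 0.82 fed, though no fed array measured it well above background. Conversely, Sfxn1, a mitochondrial serine carrier, Cryl1 and Bdh2, chosen after their values were seen, were called in fasted livers and over both states but not in fed livers. Over both states they rose by 0.75 (SE 0.08, adjusted p = 0.0005 in limma), 0.80 and 0.76, and each was called all 14 times an array was left out.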

How the data were processed

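Members, gene lists and the naming rule were chosen with earlier results of these data known. The 14 adult arrays were read from their scanner files; the newborn arrays were not used here, other than 1 file for probe names and mm9 positions. Per the file headers, the deposited files hold median spot intensity and local background intensity without normalization (Agilent Feature Extraction 10.5.1.1; the submitters' processing notes name 8.5.1.1). The authors' deposited value table holds log10 ratios of reference over liver, equal to the array files' log ratio (largest difference 0 on 14 arrays).

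Background was corrected with normexp (offset 50), after local backgrounds marked as outliers were replaced by the array median. Loess was applied within arrays, control spots having no weight, and values were turned to log2 liver over reference. The ratios had no further step between arrays. Changes of the liver or reference channel and "at least" folds used channels rebuilt from these ratios and quantile-normalized average intensities. The alternative with the liver channel alone instead used background-corrected liver signals, quantile-normalized between arrays. Outlier spots were set to missing (150 genes, 0.873%, lack at least 1 spot), so their fit used fewer arrays. A probe was tested if 3 or more adult arrays had its liver channel well above background, and the brightest probe was kept per gene. Of 41174 probes, 26207 were named by accession, 5591 by symbol and 1034 by synonym in a RefSeq table of GRCm38.p6, and 8342 kept the file's name.

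The model in limma 3.58.1 (R 4.3.3, lmFit and eBayes, two-sided) held 4 slide means and 1 knockout change (9 residual degrees of freedom), or 1 knockout change per feeding state (8). P-values were Benjamini-Hochberg adjusted over 17186 genes. The number of arrays limits the precision. The steps were tested on simulated data. Files were read with data.table (version 1.17.8) and pandas 2.3.3, and figures drawn with matplotlib 3.10.9. Genes were named by rule: the 10 largest rises and falls, the 15 largest rises and falls and the 5 smallest p in each direction among genes outside both single-state tests with the same sign on 4 slides and signal in both states, and up to 4 members of each of 50 lists.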

Additional observations from a re-analysis of the deposited data

Results flagged for a closer look

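In groups of 4 arrays, a single array was marked where its gap to the nearest other array exceeded Dixon's 95% critical value for the range of the group. Of 130 groups (65 named genes, fasted controls and fasted knockouts), 8 were marked, and chance marks about 1 in 20. Values are log2 liver over reference. In fasted controls, Sp5 was highest on array 3 at 5.25 (nearest 4.14), and Ube2e2 on array 2 at 1.19 (nearest 0.76). In fasted knockouts, Adamts7 was highest on array 4 at 1.36 (nearest 0.46) and Blvrb on the same array at 1.82 (nearest 1.49). Rdh9 was highest on fasted knockout 3 at 1.65 (nearest 1.05), where Nudt19 was lowest at 1.66 (nearest 1.93). On fasted knockout 2, Serpina7 was highest at 3.52 (nearest 0.93) and Got1 lowest at 1.53 (nearest 1.86). Among these, Ube2e2 and Adamts7 kept their call in only 2 of the 14 fits with an array left out, whereas Sp5, Rdh9 and Serpina7 kept it in all 14.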

How the results depend on the processing

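Of 65 called genes that the text could name, 64 kept their sign in every alternative, the fits within single slides left aside. The exception, Etnppl, stood at -0.036 with the ratios of the scanner software. Sizes were less stable than signs. In the alternative nearest 0, Klhdc7a, Pcp4l1, Pir and Cipc stood at -0.061, -0.086, -0.067 and -0.079. Within slide 5, Cdkn1a stood at -0.093, although it rose over both states. The count over both states (124) was 66 with the title's number as a replicate block in place of slide, 67 with the scanner software's ratios, 63 with marked local backgrounds kept and 82 with scaling between arrays. It was 43, 38 and 79 without slide 3, 4 and 6, 118 within slide 3 alone (35 of them among the 124), and 0 within slide 4, 5 or 6 alone (1106, 1540 and 1222 at an unadjusted p under 0.05 in limma). Leaving out single arrays gave 72 to 114: 82 and 72 without fasted control 1 and 2, and 73 without fasted knockout 2. The fasted count (133) was 85 without a slide block and with group means alone, 45 with the replicate block, 88 with offset 16, 2005 with local backgrounds kept, 81 without a filter, 21, 321, 80 and 77 without slide 3, 4, 5 and 6, 61 when fitted alone, and 58 to 145 without single arrays. The fed count (50) was 24 with the replicate block, 10 with local backgrounds kept, 30 with median centring, 18 with scaling, 28 with array weights, 29, 24, 165 and 125 without slide 3, 4, 5 and 6, 17 when fitted alone, and 33 to 134 without single arrays. The interaction count (0) was 7 with the scanner software's ratios, 1 with probes averaged, 53, 56 and 37 without slide 4, 5 and 6, and 0 to 42 without single arrays. The 48 genes outside both single-state tests numbered 29 with the replicate block, 26 with the scanner software's ratios, 0 with local backgrounds kept, 19 with scaling, 20, 9 and 26 without slide 3, 4 and 6, and 79 beside states fitted alone. Without single arrays they numbered 27 to 64: 27, 29, 31 and 31 without fasted knockout 4, fasted control 4, fasted knockout 2 and fed knockout 3. The cause was not tested, beyond the smaller number of arrays. Lower genes made up 66.9% of calls, against 80.6% with median centring, 76.8% with scaling and 77.2% from the liver channel alone, and 49.2% with local backgrounds kept and 54.2% within slide 3. Same-numbered arrays of both genotypes deviated together with correlations of 0.003 to 0.102 in fasted and -0.105 to 0.158 in fed livers, so the numbers were not taken as pairs. Low signals limit fed livers most.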
